A study of Drosophila melanogaster with 4 samples.

Results

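The regions described here are dMi-2-enriched regions of Drosophila melanogaster. They lie at the centromere-facing ends of assembled arms, on the small chromosome 4 or on the assembled heterochromatin. They were taken by position from 3 deposited lists of enriched regions on release 5 of the genome: all regions on chromosome 4, on U (joined sequence without a place) and on the heterochromatic scaffolds XHet, 2LHet, 2RHet, 3LHet and 3RHet, and all regions with their midpoint in the last 1 Mb of 2L (above 22011544), 3L (above 23543557) or X (above 21422827) or in the first 1 Mb of 3R (up to 1000000). These ends face the centromere, and each such stretch is called a zone below. Distance from the centromere is counted from that end of the assembled sequence, also on chromosome 4. How far each end lies from the centromere itself is not given, so equal zones may not lie equally near it. The combined list held 229 such regions out of 9388, the list of ChIP replicate 1 held 73 out of 4213, and that of ChIP replicate 2 held 101 out of 5359. The lists come from chromatin immunoprecipitation and sequencing (ChIP-seq) with antibody Q4443 against dMi-2 on whole Oregon-R embryos of wild-type genotype, aged 14 to 16 h. There were 2 ChIP libraries, and 2 Input libraries of the same strain and stage, each named as the control of 1 ChIP replicate. No allele, transgene or treatment is named for any library. Nothing in the labels tells if the 2 replicates were collected separately, so the spread between them may be technical. Whole embryos mix all cell types.

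dMi-2 is a CHD-family protein that uses ATP to move nucleosomes and works in the NuRD complex, together with histone deacetylase activity, and in the dMec complex with MEP-1. Heterochromatin around Drosophila centromeres is rich in repeats, holds few genes and carries methylated histone H3 lysine 9 bound by HP1a. Chromosome 4 combines such HP1a-bound chromatin with active genes along its arm and has a dedicated chromosomal protein, POF. The scaffolds called Het are assembled stretches of heterochromatin assigned to a chromosome arm.

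dMi-2 regions were sparse in the zones of 2L, 3L and X, on chromosome 4 and on the scaffolds (least so on XHet), and not sparse in the zone of 3R. In the combined list the zones carried 90 regions on 3R, 35 on X, 15 on 2L and 3 on 3L, each within 1 Mb. Counting error alone gives 95% intervals of 72.4 to 111, 24.4 to 48.7, 8.40 to 24.7 and 0.619 to 8.77 regions per Mb for these zones. The intervals of X and 2L, and those of 2L and 3L, thus touch, while that of 3R stands clear of the others. The order was the same in both replicates, with 45, 10, 2 and 0 regions in replicate 1 and 60, 19, 4 and 0 in replicate 2. Chromosome 4 held 28.8 regions per Mb, the 6 scaffolds together 2.48 per Mb (34.3 on the short XHet and 1.89 to 5.42 on the others), and the long arms outside the zones 79.6 per Mb. All intervals given here cover counting error only and take regions as independent, although they cluster. The depth behind each region is unknown, because the lists hold no read counts, and how far reads could be placed in these sequences was not tested.

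Set against the rest of its own arm, the zone was depleted on 2L, 3L and X. On 3L the combined list had 3.00 regions per Mb in the zone, against 80.5 per Mb along the rest of 3L, a ratio of 0.0373 (95% interval 0.00768 to 0.109). Neither replicate called any region in the 3L zone, against 857 regions in replicate 1 and 1067 in replicate 2 along the rest of 3L. On 2L the ratio was 0.203 in the combined list (interval 0.114 to 0.336). In the lists of the single libraries it was 0.0640 in replicate 1 (interval 0.00773 to 0.232) and 0.0997 in replicate 2 (interval 0.0271 to 0.256), which rest on 2 and 4 regions in the zone. On X the ratio was 0.437 in the combined list (interval 0.304 to 0.611), 0.288 in replicate 1 (interval 0.138 to 0.533) and 0.405 in replicate 2 (interval 0.243 to 0.636). Each of these intervals lies below 1, so the depletion exceeds counting error on all 3 arms. With zones of 2 Mb in place of 1 Mb the combined-list ratio was higher on 2L and 3L, at 0.511 and 0.163.

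The zone of 3R was not depleted. It carried 90.0 regions per Mb in the combined list, against 77.6 per Mb along the rest of 3R, a ratio of 1.16 whose interval of 0.928 to 1.43 includes 1. The ratio was 1.27 in replicate 1 (interval 0.917 to 1.71) and 1.34 in replicate 2 (interval 1.01 to 1.73), so only the replicate 2 interval lay above 1. With a zone of 500 kb the combined-list ratio was 0.973. Coverage did not drop either: the 3R zone was covered to 25.2% in the combined list, 10.3% in replicate 1 and 14.3% in replicate 2, against 21.1%, 8.22% and 11.8% along the rest of 3R. Against the pooled zones of 2L, 3L and X, which held 53 regions in 3 Mb, the density on 3R was 5.09 times as high in the combined list (interval 3.59 to 7.29). The replicate lists gave larger ratios, 11.25 in replicate 1 (interval 5.85 to 23.4) and 7.83 in replicate 2 (interval 4.77 to 13.3), and with zones of 2 Mb the combined list gave 3.35. Among the 117 whole 1-Mb windows of the 5 long arms, counted outward from the centromere, the 3R zone ranked 37 from the fullest by number of combined-list regions, against ranks of 109 for X, 115 for 2L and 116 for 3L. The median window held 82 regions.

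The distance at which the density drops was read from 100-kb windows as the start of the first 3 windows in a row that each held at least 50% of the arm's median window coverage. On 3R there was no drop, since the first window already met this in all 3 lists. On 3L the drop was sharp and lay 1600 kb from the end of the assembled arm in all 3 lists. Of the 16 windows inside that point, 14 held no combined-list sequence, and the next window was covered to 29.5%, against a median of 18.7% for the arm. In replicate 2 the step on 3L was as abrupt, with 0 regions over 16 windows followed by a window covered to 25.1%, against a median of 9.48%. In replicate 1 the 16 windows also held 0 regions, but the next was covered to 6.23%, close to the median of 6.06%. On 2L the drop lay at 1600 kb in the combined list and replicate 2 and at 1100 kb in replicate 1. On 2L, 39 combined-list regions still lay inside 1600 kb and 3 of the 16 windows reached the threshold. Replicate 2 had 15 regions inside the same distance, and 2 of the 16 windows reached its threshold. Replicate 1 had 2 regions inside its own, shorter distance of 1100 kb. On X the drop lay at 2600 kb in all 3 lists, yet 9 of the 26 windows inside it reached the threshold in the combined list, so regions there formed islands rather than stopping at a border.

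**Figure D1:**
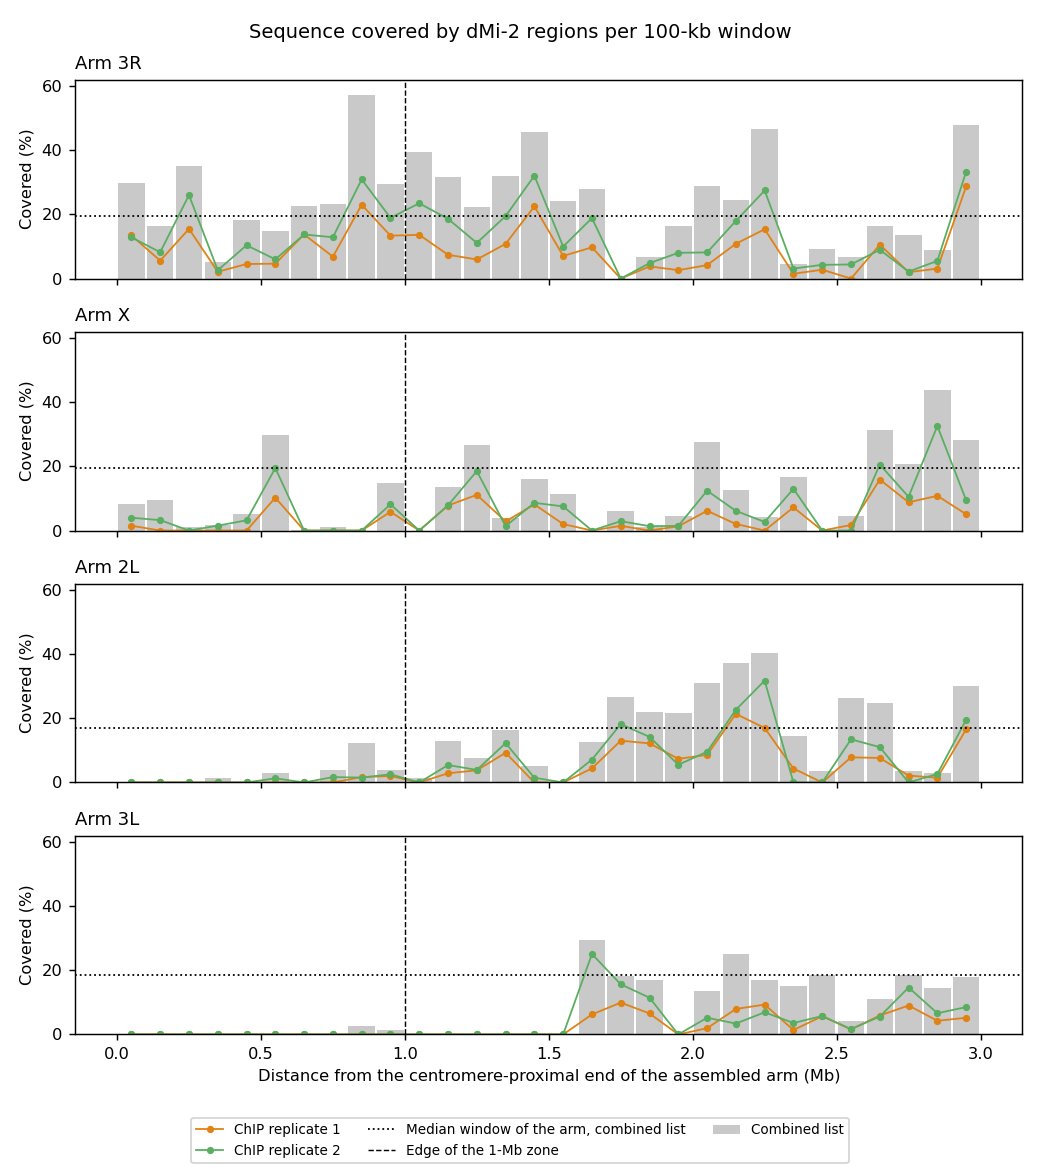
Share of each 100-kb window covered by dMi-2 regions (y axis, %) against distance from the centromere-proximal end of the assembled arm (x axis, Mb) for arms 3R, X, 2L and 3L, with grey bars for the combined list, orange and green points for ChIP replicates 1 and 2, a dotted line at the median window of the arm in the combined list and a dashed line at the edge of the 1-Mb zone. The first 10 windows of 3R all hold regions in each list, while those of 3L stay at or near 0 up to 1600 kb.

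The second megabase from the centromere-facing end of each assembled arm showed how far each depletion reached. On X the count stayed at 35 in the combined list, with 16 in replicate 1 and 20 in replicate 2. On 2L it was 61 in the combined list, 25 in replicate 1 and 32 in replicate 2. On 3L it was 24, 10 and 21, all of them beyond 1600 kb. On 3R it was 103, 39 and 61, and 103 ranks 14 from the fullest among the 117 windows. By the third megabase the combined list held 74 regions on X, 78 on 2L and 79 on 3L, against 82 in the median window. The replicates held 26 and 44 there on X, 39 and 43 on 2L, and 29 and 30 on 3L, against medians of 36 in replicate 1 and 47 in replicate 2.

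dMi-2 regions on 3R reached the very end of the assembled arm. The nearest region lay at 4 to 2298 in the combined list, with a deposited score of 0.767 that ranked 285 of 9388. It was called at 3 to 1833 in replicate 1 (score 0.969, rank 83) and at 5 to 2361 in replicate 2 (score 0.783, rank 740). The scores are the authors' own, on a scale that the files do not name, and their levels are compared only within a list. The highest-scoring region of the zone lay at 274038 to 282300 (8.26 kb, score 0.826, rank 183) and was covered to 84.3% by replicate 1 and to 92.1% by replicate 2. The widest one lay at 885532 to 894298 (8.77 kb, score 0.497), covered to 55.5% by replicate 1 and to 73.3% by replicate 2. Both of these regions were found in each library. The highest-scoring one was called as 1 wide region in each, of 6.96 kb in replicate 1 and 7.61 kb in replicate 2. The widest one was broad only in the combined list, since replicate 1 and replicate 2 each called 3 separate regions there. A combined-list region counts as found in a replicate when it overlaps a region of that replicate by at least 1 bp, and 31.8% of the whole combined list overlapped both replicates, while 40.6% overlapped neither.

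Within the zone of 3R every 100-kb window held at least 1 region in each of the 3 lists, but the fill was uneven. Coverage in the combined list ran from 5.31% between 300 and 400 kb to 57.1% between 800 and 900 kb. The fullest window held 17 regions in the combined list, 11 in replicate 1 and 15 in replicate 2, and was the fullest of the zone by number in all 3 lists. One long stretch was empty in all 3 lists. It ran from 306117 to 465949 in the combined list (160 kb), from 305551 to 474828 in replicate 1 (169 kb) and from 305622 to 465955 in replicate 2 (160 kb). Its borders differed between the lists by less than 1 kb on the proximal side and by less than 9 kb on the distal side. The inner 500 kb held 38 regions and the outer 500 kb 52 in the combined list, against 19 and 26 in replicate 1 and 24 and 36 in replicate 2.

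Regions in the zone of X lay in islands, and X too reached the end of its assembled sequence. The nearest region lay at 22414196 to 22416644 in the combined list (2.45 kb, score 0.509), with its midpoint 7.41 kb from the end, and overlapped both replicates. It was called at 22414515 to 22416021 in replicate 1 (score 0.680) and at 22414758 to 22416243 in replicate 2 (score 0.503). The largest island lay 500 to 600 kb from the end, where the combined list held 12 regions, replicate 1 held 6 and replicate 2 held 9. Of those 12 regions, 5 overlapped both replicates, among them the widest of the zone at 21872642 to 21876860 (4.22 kb, score 0.551). There the replicates lay in different parts of the combined-list region, at 21872986 to 21874337 in replicate 1 (score 0.699) and at 21874675 to 21876846 in replicate 2 (score 0.782), and did not overlap each other. The same held for the region at 21882516 to 21886024 (3.51 kb), with replicate 1 at 21882690 to 21884211 and replicate 2 at 21884719 to 21886023. A second island between 900 and 1000 kb held 7 regions in the combined list, 3 in replicate 1 and 4 in replicate 2. These islands held 8 of the 9 regions of the X zone found in both replicates, the other one being the region nearest the centromere.

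Outside the islands the X zone was sparse. The longest stretch without a region measured 195 kb in the combined list (21627663 to 21822685), 500 kb in replicate 1 (21914699 to 22414514) and 348 kb in replicate 2 (21495777 to 21843429). Replicate 1 called 1 region within 500 kb of the end of X, against 6 in replicate 2 and 15 in the combined list. The highest combined-list score of the zone belonged to a region of 1001 bp at 21626662 to 21627662 (score 3.40, rank 2), which overlapped neither replicate.

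**Figure D2:**
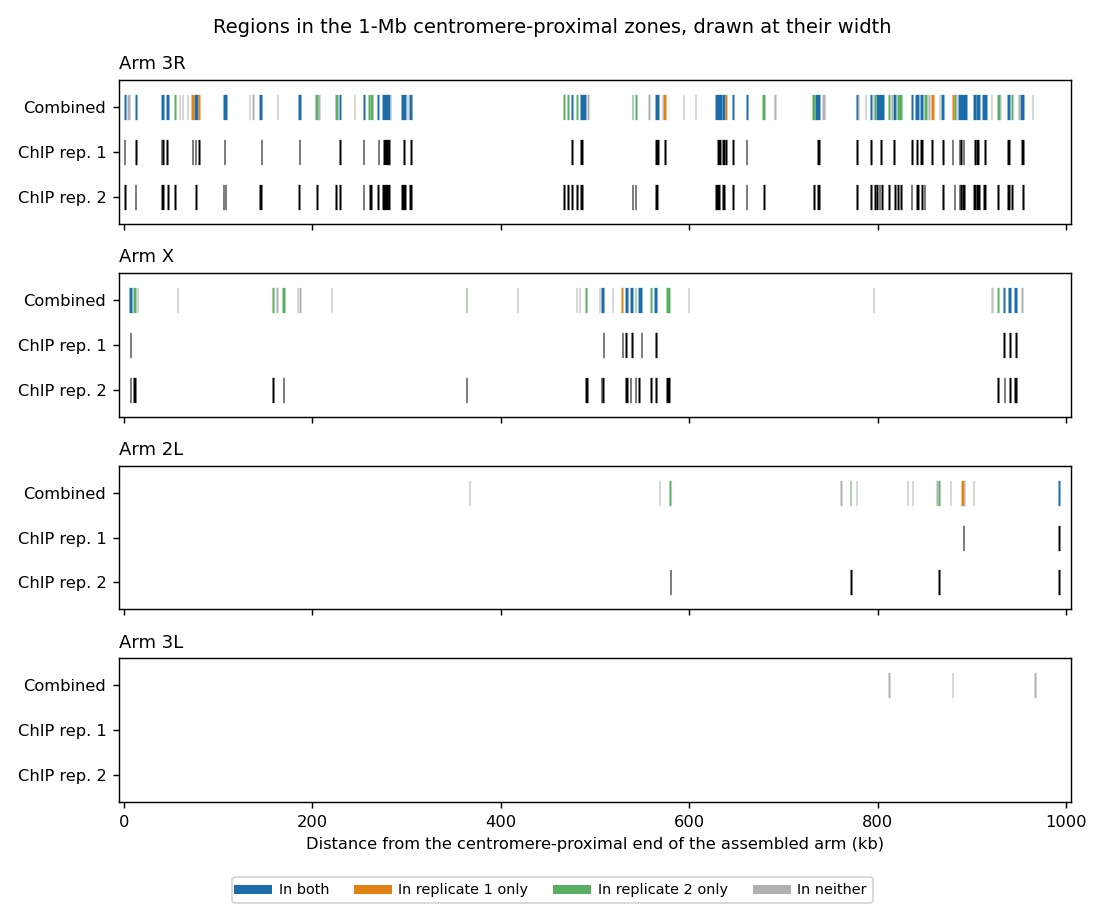
Regions of the 1-Mb zones of arms 3R, X, 2L and 3L, drawn at their width against distance from the centromere-proximal end of the assembled arm (x axis, kb), with 1 row for each of the 3 lists and combined-list regions coloured by overlap with the replicate lists (blue for both, orange for replicate 1 only, green for replicate 2 only, grey for neither). The 3R rows are filled throughout except for the empty stretch of about 160 kb, the X rows show islands, and the replicate rows of 3L are empty.

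On 2L and 3L the last megabase of the assembled arm was close to empty in the replicate lists. Of the 15 combined-list regions in the 2L zone, 14 lay in its outer 500 kb, and the nearest one, at 22643574 to 22644982 (score 0.303, rank 9186), lay 367 kb from the end and overlapped neither replicate. The nearest region of replicate 1 lay at 22119826 to 22121503, 891 kb from the end, and that of replicate 2 at 22431034 to 22432341, 580 kb from the end. The only one found in both replicates lay at 22017860 to 22020564 (2.71 kb, score 0.495, with 0.643 in replicate 1 and 0.625 in replicate 2), 992 kb from the end. The widest, at 22119848 to 22123242 (3.40 kb, score 0.379), overlapped replicate 1 alone, and the highest-scoring, at 22233770 to 22234770 (1001 bp, score 2.40), overlapped neither. Support in both libraries thus began only at the outer edge of the 2L zone.

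The 3 regions of the 3L zone lay at 23575694 to 23577196 (score 0.438), 23663326 to 23664326 (score 2.72) and 23730946 to 23732726 (score 0.248), the last being both the nearest, 812 kb from the end, and the widest at 1.78 kb. None of the 3 overlapped a replicate region. In both replicates the longest stretch without a region on the whole of 3L was the one that begins at the centromere-proximal end, 1655 kb in replicate 1 and 1601 kb in replicate 2. The next longest on 3L was 344 kb in replicate 1 and 349 kb in replicate 2. On 2L the longest stretch likewise began at that end. It measured 367 kb in the combined list, 890.0 kb in replicate 1 and 579 kb in replicate 2. On 3R the longest stretch of the combined list measured 318 kb and began 23814 kb out on the arm.

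The outermost combined-list region inside the 1-Mb line and the first one outside it lay at 992 and 1041 kb on 2L, 967 and 1602 kb on 3L, 953 and 1164 kb on X, and 964 and 1015 kb on 3R. Their scores inside and outside were 0.495 and 0.252 on 2L, 0.438 and 0.415 on 3L, 0.515 and 0.403 on X, and 0.463 and 0.432 on 3R.

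On chromosome 4, dMi-2 regions were few, and 20 of the 39 in the combined list lay in the middle part of the sequence. The combined list covered 5.37% of its 1351857 bp, against 21.6% of the long arms outside the zones. Replicate 1 held 12 regions covering 1.55%, and replicate 2 held 13 covering 1.81%, against 8.30% and 12.0% of the long arms outside the zones. Counting error gives 20.5 to 39.4 regions per Mb for the combined list, 4.59 to 15.5 for replicate 1 and 5.12 to 16.4 for replicate 2. The rest of the long arms had 79.6, 36.0 and 45.7 regions per Mb in these lists, above each of these intervals. The median distance between neighbouring combined-list regions was 18.3 kb on chromosome 4, against 3.22 to 3.97 kb along the rest of 2L, 3L, X and 3R.

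The number of regions did not differ beyond counting error between the sides of chromosome 4. Beyond its midpoint, away from the centromere, lay 17 combined-list regions, against 22 before it, a ratio of 0.773 with an interval of 0.385 to 1.52. Among regions scoring at or above the median the ratio was 1.20. Replicate 1 had 6 and 6, and replicate 2 had 6 and 7. Cut into 3 equal lengths from the centromere outward, the sequence held 10, 20 and 9 combined-list regions, 3, 5 and 4 of replicate 1, and 2, 8 and 3 of replicate 2. The fullest 100-kb window, from 500 to 600 kb, was covered to 18.9% in the combined list and to 9.47% in replicate 2. In replicate 1 it was covered to 3.85%, below the 4.56% of the window from 800 to 900 kb, so the fullest window was not the same in both libraries. Grouping regions less than 20 kb apart (a distance picked with the values known), the largest group spanned 486836 to 529974 (43.1 kb) with 7 combined-list regions, 1 region of replicate 1 and 4 of replicate 2.

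**Figure D3:**
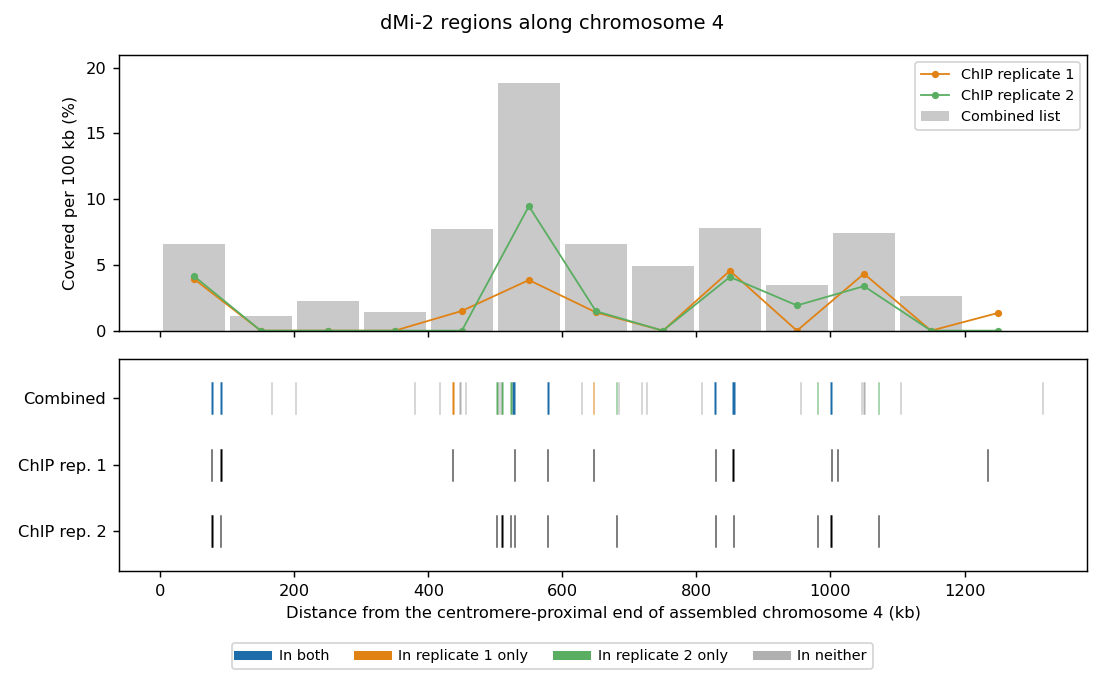
dMi-2 regions along chromosome 4 by distance from the centromere-proximal end of the assembled sequence (x axis, kb), with the share of each full 100-kb window covered (y axis, %) in the combined list (grey bars) and in ChIP replicates 1 and 2 (points) above, and the regions of each list at their width, coloured by overlap, below. The window from 500 to 600 kb stands highest in the combined list at 18.9%, and both replicate rows are empty from 91678 to 435950.

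On the centromere-proximal side of chromosome 4 lay a pair of regions found in both replicates, followed by a long stretch with no region in either replicate. The first lay at 76120 to 78198, with scores of 0.433 in replicate 1 and 0.477 in replicate 2. The other lay at 88544 to 91806, with scores of 0.564 in replicate 1 and 0.499 in replicate 2. Between them the combined list held a region at 87042 to 88310 (score 0.291) that overlapped neither replicate. From 91678 to 435950 neither replicate held a region, a stretch of 344 kb in which the combined list held 5 regions, all of them in neither replicate. That stretch was the longest without a region on chromosome 4 in replicate 1, and in replicate 2 the longest ran on to 501302 (410.5 kb). In the combined list the longest empty stretch lay at the other side, from 1119207 to 1316069 (197 kb).

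The other 5 regions of chromosome 4 found in both replicates lay between 525162 and 1002220. The widest region of the chromosome, at 525162 to 529974 (4.81 kb, score 0.458), was covered to 48.6% by replicate 1 (score 0.649) and to 41.5% by replicate 2 (score 0.539). A second lay at 576844 to 579604 (2.76 kb), with scores of 0.419 in replicate 1 and 0.492 in replicate 2. The region at 826950 to 829658 (2.71 kb) had the highest combined-list score of the 7, 0.522 (rank 2270), and scores of 0.631 in replicate 1 and 0.566 in replicate 2. Its neighbour at 853522 to 857516 (4.00 kb) had scores of 0.633 in replicate 1 and 0.554 in replicate 2. The last lay at 999264 to 1002220 (2.96 kb), with scores of 0.538 in replicate 1 and 0.567 in replicate 2. All 7 ranked between 2270 and 7088 among the 9388 regions, so none stood among the high scores of the combined list.

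Single-library regions of chromosome 4 were scattered between the shared ones. Replicate 1 alone supported the combined-list regions at 435630 to 437596 and 645652 to 647518, with its own scores of 0.559 and 0.607. Replicate 2 alone supported 6, of which 3 lay at 501392 to 503472, 508494 to 511006 and 521164 to 524258, inside the largest group. That at 508494 to 511006 held the highest score of replicate 2 on the chromosome, 0.598. The remaining 3 lay at 680024 to 681596, 979868 to 981558 and 1071366 to 1072594. Replicate 1 also called 3 regions that the combined list did not take in, at 1009831 to 1011232, 1022497 to 1023816 and 1234167 to 1235515, with scores of 0.540, 0.403 and 0.417. The last of these fell inside the longest empty stretch of the combined list.

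The assembled heterochromatin and U held few regions, and of these 1 was found in both libraries. It lay on U at 9169264 to 9172032 in the combined list (2.77 kb, score 2.06), at 9169859 to 9171269 in replicate 1 (score 2.15) and at 9169264 to 9171945 in replicate 2 (score 2.21), and ranked 2 in both replicate lists. The rest of U held 18 combined-list regions, none of which overlapped a replicate, and 15 of the 19 lay in the last 3350 kb of its 10.0 Mb. The highest score of the combined list belonged to one of them, at 8143350 to 8144442 (1.09 kb, score 3.57). The highest score of replicate 2 also lay on U, at 9643528 to 9644975 (1.45 kb, score 2.80), without overlap in replicate 1 or in the combined list.

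On the Het scaffolds the combined list held 7 regions on XHet, 7 on 2RHet, 7 on 3LHet, 5 on 3RHet and 2 on 2LHet, and none overlapped both replicates. XHet, the shortest at 0.204 Mb, was covered to 5.09% in the combined list, against 0.214% to 0.611% on the other 4. Chromosome 4 was covered to 5.37% and the X zone to 7.13%. The 7 regions of XHet give a wide interval of 13.8 to 70.7 per Mb. Replicate 1 supported its region at 49300 to 51382 (replicate 1 score 0.598), and replicate 2 that at 60080 to 62258 (replicate 2 score 0.592). All 7 regions of XHet lay in its first 136 kb.

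On 3LHet, replicate 1 supported the region at 206466 to 208254 (replicate 1 score 0.327) and replicate 2 that at 701744 to 703282 (replicate 2 score 0.394). On 3RHet, all 5 combined-list regions lay in the last 839 kb, and replicate 2 supported that at 2473742 to 2475646 (replicate 2 score 0.499). The highest score of replicate 1 lay close by on 3RHet, at 2463393 to 2464758 (1.37 kb, score 2.67), and overlapped neither replicate 2 nor the combined list. No region of 2LHet or 2RHet was found in a replicate list. In the combined list the zone of 3R held 90.0 regions per Mb and the scaffold 3RHet 1.99 per Mb.

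The share of combined-list regions found in both replicates ran from 40.0% in the 3R zone to 2.13% on the scaffolds, apart from the 3 regions of the 3L zone. In the whole list 0 of the 2985 regions in both were narrower than 1301 bp, the smallest width in either replicate list. The median scaffold region measured 1047 bp, so the low share on the scaffolds cannot be told apart from their narrow width. In the 3R zone 36 of 90 regions overlapped both (40.0%, interval 29.8 to 50.9), against 32.8% along the rest of 3R. In the X zone 9 of 35 did (25.7%, interval 12.5 to 43.3), against 29.9% along the rest of X. Both intervals include the 31.8% of the whole list. In the 2L zone 1 of 15 did (6.67%, interval 0.169 to 31.9), against 31.2% along the rest of 2L, and in the 3L zone 0 of 3.

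On chromosome 4, 7 of 39 regions overlapped both replicates (17.9%, interval 7.54 to 33.5, which includes 31.8%), and 24 overlapped neither (61.5%, interval 44.6 to 76.6, above 40.6%). On the 6 scaffolds 1 of 47 overlapped both (2.13%, interval 0.0539 to 11.3) and 41 overlapped neither (87.2%, interval 74.3 to 95.2). However, 39 of these 41 were narrower than 1301 bp, and neither replicate list holds any region so narrow. Among regions in neither, that also held for 12 of 24 on chromosome 4 and 1795 of 3815 in the whole list. On the Het scaffolds 0 of 28 overlapped both, with an interval of up to 12.3%, but 22 of the 23 in neither were narrower than 1301 bp. With centres within 250 bp as the criterion in place of overlap, the share in both replicates over the 4 zones was 10.5%, against 32.2% by overlap. The share of the whole list under that criterion was not computed, so 10.5% cannot be called low or high for the zones. Of all 229 regions, 54 overlapped both (23.6%) and 123 neither (53.7%).

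**Figure D4:**
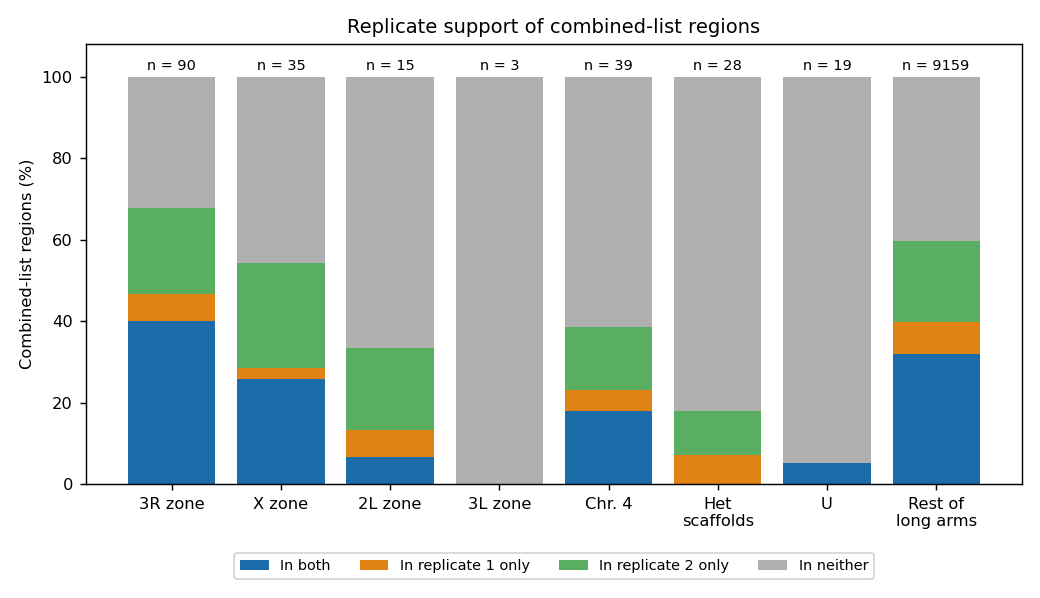
Share of combined-list regions (y axis, %) that overlap both replicates, replicate 1 only, replicate 2 only or neither, for the zones of 3R, X, 2L and 3L, chromosome 4, the Het scaffolds, U and the rest of the long arms, with the number of regions above each bar. The blue part stands at 40.0% in the 3R zone and 32.0% along the rest of the long arms, and is 0 in the 3L zone and on the Het scaffolds.

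Compared directly, the replicates shared most of their regions in the zone of 3R. Of the replicate 1 regions there, 39 of 45 overlapped a replicate 2 region (86.7%, interval 73.2 to 94.9), against 80.0% of the whole replicate 1 list. Of the replicate 2 regions there, 40 of 60 overlapped a replicate 1 region (66.7%, interval 53.3 to 78.3), against 60.5% of the whole replicate 2 list. With centres within 250 bp as the criterion these shares of the 3R zone were 37.8% and 28.3%, without shares of the whole lists to set beside them. In the X zone 7 of 10 regions of replicate 1 and 7 of 19 of replicate 2 were shared (36.8%, interval 16.3 to 61.6, for replicate 2). On chromosome 4 it was 7 of 12 (58.3%, interval 27.7 to 84.8) and 7 of 13 (53.8%, interval 25.1 to 80.8). For replicate 1 in the X zone the share was 70.0% (interval 34.8 to 93.3). The intervals of the 3R zone, the X zone and chromosome 4 include the shares of the whole lists.

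Regions found in both replicates were wide, and those found in neither were narrow, in the zones as along the arms. The definition itself favours this, since a wider region more easily overlaps another by 1 bp and no replicate region is narrower than 1301 bp. How much of the difference goes beyond the definition was not tested. In the 4 zones the median width was 3538 bp for the 46 regions in both and 1313 bp for the 58 in neither, against 3809 bp and 1343 bp along the rest of the long arms. On chromosome 4 it was 2957 bp for the 7 in both and 1304 bp for the 24 in neither. The median was 1033 bp for the 41 scaffold regions in neither. Of these, 39 were narrower than 1301 bp, the smallest width in either replicate list. Over all widths, the median was 2429 bp in the 3R zone, 1775 bp in the X zone, 1607 bp on chromosome 4 and 1047 bp on the scaffolds, against 2057 bp along the rest of the long arms.

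High combined-list scores among these sequences belonged almost entirely to such narrow regions. Scores above 1, a line picked with the values known, were held by 0.873% of the combined list and by 34 of the 229 regions described here, of which 28 lay on the scaffolds, 4 in the zones of 2L, 3L and X and 2 on chromosome 4. Of these 34, 33 were narrower than 1301 bp and overlapped neither replicate, the exception being the U region at 9169264 to 9172032. Exactly equal scores recurred: 24 of the 34 shared their score with at least 1 other region of the combined list. Ties were counted only among scores above 1, and lower scores recurred as well, such as 0.402723 in the 3R zone. Sharing a score is thus not shown to be particular to high scores. The whole combined list held 82 regions with scores above 1. Of these 82, 57 were narrower than 1301 bp, 58 overlapped neither replicate and 38 shared their score. In the 3R zone no score exceeded 0.826. Median scores in the combined list were 0.437 in the 3R zone, against 0.433 along the rest of 3R, and 0.503 in the X zone, against 0.494 along the rest of X. Chromosome 4 had a median of 0.380, against 0.442 along the rest of the long arms. On chromosome 4 the median was also below that of the rest of the long arms within each replicate, with 0.549 against 0.623 in replicate 1 and 0.516 against 0.622 in replicate 2.

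**Figure D5:**
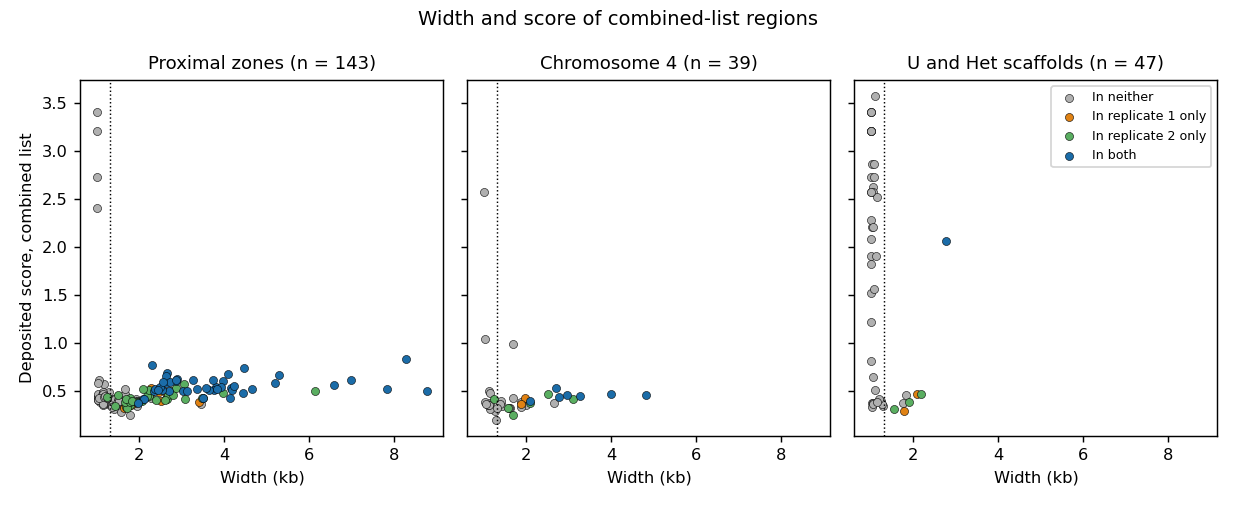
Deposited score in the combined list (y axis) against width (x axis, kb) for regions of the 4 proximal zones, of chromosome 4 and of U with the Het scaffolds, coloured by overlap with the replicate lists, with a dotted line at the smallest width in the replicate lists, 1301 bp. Scores above 1 lie to its left in all panels but for the U region of 2.77 kb found in both replicates.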

How the data were processed

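Each deposited list gives a sequence, start, end and score per enriched region, on FlyBase release 5 per the file headers. The submitters' processing notes name Bowtie 0.12.7. Not given in the sources used here are the region caller, its settings, the scale of the score and whether reads were pooled for the combined list. In 1 region the end is in exponent form and was taken as a full number. No list of the Input libraries was used here. Overlaps, counts per Mb and covered lengths were computed with Python 3.11.15, numpy 2.4.6, pandas 2.3.3 and scipy 1.17.1, and checked against bedtools 2.31.1 and on simulated data. Intervals are 95% exact ones (Poisson, Clopper-Pearson, and conditional binomial for ratios). No p-values were computed, because 2 ChIP libraries cannot pass a test over samples. The regions and the stretches compared were chosen with earlier results of these data known. Regions named are those nearest the centromere, widest and highest-scoring of each zone, the nearest in both replicates, those of chromosome 4 and the scaffolds with replicate support, and the top scores of each list there; the remaining regions of 3L and the X region at 21882516 were named after their values were seen. Regions are given by position without genes or sequence, since the only gene table at hand is on Release 6. Alternatives were a score and a width minimum, covered length, other zone and window sizes, other definitions of overlap and each replicate's own list.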

Additional observations from a re-analysis of the deposited data

How the results depend on the processing

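Of 90 alternative values, 62 lay inside the interval of the value reported, or for drops within the spread of the replicates, and 28 did not, and no depletion turned into its opposite. A pair of ratios whose intervals include 1 crossed it: 3R zone over rest was 0.973 with a zone of 500 kb, against 1.16, and the distal over the proximal side of chromosome 4 was 1.20 at or above the median score, against 0.773. No paired analysis was possible because the Input libraries have no values here, and leaving out a replicate gives no share in both. With each replicate's own list (the other left out), the ratio of zone to rest ranged from 0.0640 to 0.0997 on 2L and from 0.288 to 0.405 on X and was 0 on 3L, 3R over the other zones ranged from 7.83 to 11.25, and the 2L drop from 1100 to 1600 kb. With zones of 500 kb the ratio was 0.0275 on 2L and 0 on 3L, and with 2 Mb it was 0.511 on 2L, 0.163 on 3L and 3.35 for 3R over the other zones. The last was 7.57 by covered length and 7.625 among regions in at least 1 replicate, picked with the data known, which left 0 on 3L. The share in both replicates was 23.1% in the zones with a reciprocal overlap of 50%, 10.5% with centres within 250 bp and 58.6% at or above the median score, 45.5% on chromosome 4 at or above the median score, and 12.5% on the scaffolds without regions under 1301 bp. In the 3R zone the share of replicate 1 regions shared with replicate 2 was 71.1% under the reciprocal criterion and 37.8% under that of centres, and that of replicate 2 regions shared with replicate 1 was 28.3% under that of centres, all 3 tried after the data were known. The drop lay at 1100 kb on 2L with windows of 50 kb or at 25% of the median coverage, at 2000 kb on X with windows of 50 kb, and at 2000 kb on 3L with windows of 200 kb. For the shares above, those of the whole lists under the same criteria or minimums were not computed. They thus show the effect of the criterion, not how these parts compare with the whole lists. The causes were not tested.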

Other observations

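The first 1 Mb of 2R, the remaining centromere-proximal end of a long arm and not among the regions described above, resembled the zone of 3L in number. It held 3 regions in the combined list and 0 in both replicates, and the drop defined as above lay at 1900 kb in all 3 lists. With it, 3R was the only one of the 5 long arms without a drop in these lists. The heterochromatic scaffold YHet (0.347 Mb) and the unplaced Uextra (29.0 Mb) held no region in any of the 3 lists.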
